A study of Homo sapiens with 4 samples.

Results

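The cyclin-dependent kinases of the cell cycle (CDK1, CDK2, CDK4 and CDK6) and the proteins that restrain them were examined in 786-O, a clear cell renal cell carcinoma line without functional VHL, and in its VHL-restored subline. The genes were chosen by symbol from a list of 10. Of these, 9 had a row among the 12912 genes of the count table, and CDKN2B was not analysed here. The RNA came from 2 libraries of 786-O-Ctrl, labeled as VHL-null (below, the control cells), and 2 of 786-O-VHL (the VHL-restored cells), in which HA-tagged wild-type VHL was expressed from the retroviral vector HA-VHL/wt-pBabe-puro. The library labels name the triple-reporter (TR) versions of both sublines, which carry a retroviral fusion of GFP, luciferase and thymidine kinase, and all cells grew in RPMI1640 with serum. Whether 786-O-Ctrl carried an empty vector is not given in the sources used here. Each group is 1 subline, so the comparison is between sublines. Nothing in the labels says that the libraries of a group came from separate cultures, and p-values then measure only the spread between these libraries, which may be technical.

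Progress through the cell cycle depends on CDKs that bind cyclins. CDK4 and CDK6 pair with D-type cyclins and phosphorylate the retinoblastoma protein early in G1, CDK2 acts with cyclins E and A around the start of DNA replication, and CDK1 with cyclins A and B drives entry into mitosis. Inhibitors of the INK4 family (here CDKN2C and CDKN2D) bind CDK4 and CDK6, inhibitors of the CIP/KIP family (CDKN1A and CDKN1B) act mainly on cyclin-bound CDK2 complexes, and CDKN3 is a phosphatase that removes the activating phosphate of CDKs. CDKN1A encodes p21, CDKN1B encodes p27, CDKN2C encodes p18 and CDKN2D encodes p19.

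The depth of the libraries was unequal. Counts summed to 22141263 and 15714166 in the control libraries, named here the deeper and the shallower one because they share a replicate number, and to 2807779 and 16114120 in VHL-restored replicates 1 and 2. VHL itself was at 42.9 and 43.9 CPM (counts scaled to library size with edgeR's TMM factors) in the control cells and at 178 and 163 CPM in the VHL-restored cells. Within each group the libraries differed beyond counting noise (chi-square per degree of freedom 2.25 in the control cells and 2.76 in the VHL-restored cells). All 9 renal epithelial markers that were checked had counts, with a sum of 3580 to 3590 CPM in the control cells and of 2140 to 2150 CPM in the VHL-restored cells. VIM alone went from 1670 and 1700 to 751 and 709 CPM, and CA9, a marker of clear cell carcinoma, was at or below 1.2 CPM in every library. The part of this difference in the results below was not tested. None of the 5 leukocyte or 3 erythroid markers had a row, the 2 endothelial markers with a row summed to at most 0.76 CPM, and the 2 fibroblast markers with a row, COL1A1 and PDGFRB, summed to 9.64 to 12.9 CPM.

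In 786-O-VHL, the mRNA of the kinases CDK1 and CDK2 and of the inhibitors CDKN2C and CDKN3 was lower, and that of the inhibitors CDKN1A and CDKN1B was higher. CDK2 fell most, to 0.326 of its level in 786-O-Ctrl, and CDKN1A rose most, by 1.52-fold. CDK4, CDK6 and CDKN2D did not pass the test. In RNA from whole cultures, fewer cells that express a gene and less of its RNA per cell cannot be told apart. In all, 6 of the 9 genes passed an FDR of 0.05 (edgeR's quasi-likelihood test with Benjamini-Hochberg adjustment over 12335 genes), 4 lower and 2 higher. The comparison called 64.5% of all tested genes at that threshold, 31.9% lower and 32.6% higher, so the number of calls among the 9 genes is close to that of all tested genes. TMM scaling gave 4017 of 7956 called genes higher, and scaling by library totals gave 5077 of 8174, with 3 of the 9 genes higher and 3 lower. None of the 9 passed a |fold change| over 4 with an FDR under 0.01, a rule that 4.46% of all tested genes met. The median log2 fold change (786-O-VHL over 786-O-Ctrl) was -0.24 over the 9 genes and 0.02 over all tested genes. The libraries of the groups did not overlap for any of the 9 genes, as for 80% of all tested genes.

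**Figure D1:**
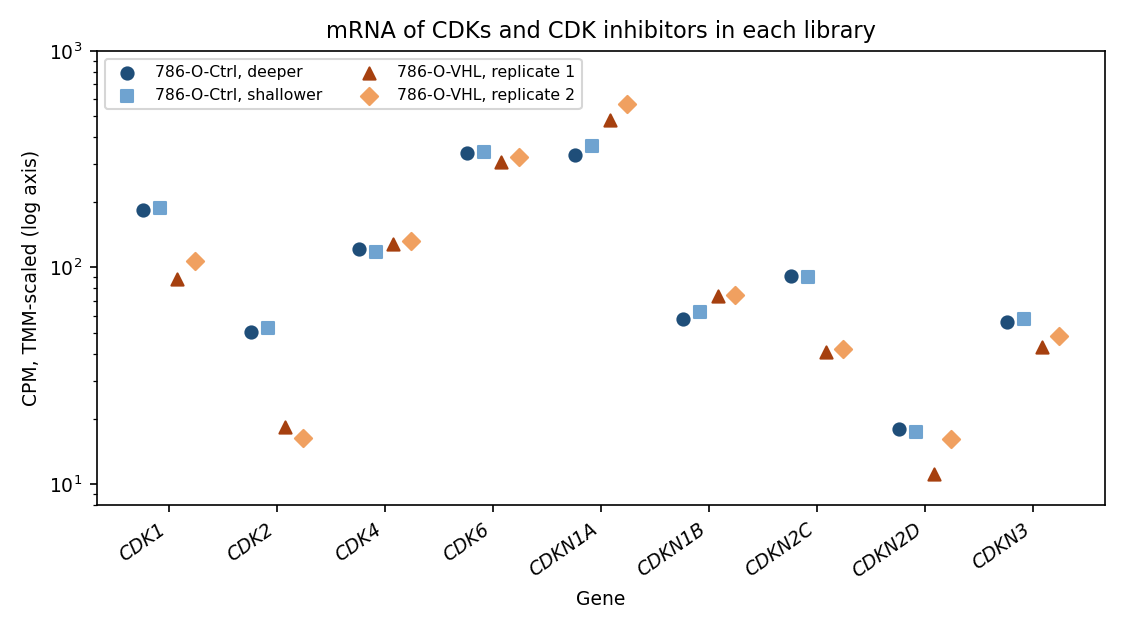
mRNA level of each gene (x axis) in CPM on a logarithmic y axis, with 1 point per library (blue shades for 786-O-Ctrl, orange shades for 786-O-VHL). The points of CDK1, CDK2 and CDKN2C are lower in 786-O-VHL, those of CDKN1A are higher, and those of CDK4 lie close together (122 and 118 against 128 and 132 CPM).

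The sequences before the start sites are shown for 3 genes that fell and for CDKN1A and CDKN1B, which rose, because cell cycle genes are known to carry particular short elements there. They are the 250 bases before a start site from RefSeq (GRCh38.p14), which held a window for 8 of the 9 genes and 12 windows in all. CDK2 was not among them. Of the 2 windows of CDK1 and the 3 of CDKN2C, the one with most matches is printed, so the windows shown are no basis for a contrast between genes that fell and rose. Capitals mark, on either strand, the cell cycle genes homology region core (TTTGAA), the CCAAT box (CCAAT) and an E2F-type element (GCGGGAA). No match of these elements overlapped another.
CDK1 (chr10:60778228-60778477, plus strand): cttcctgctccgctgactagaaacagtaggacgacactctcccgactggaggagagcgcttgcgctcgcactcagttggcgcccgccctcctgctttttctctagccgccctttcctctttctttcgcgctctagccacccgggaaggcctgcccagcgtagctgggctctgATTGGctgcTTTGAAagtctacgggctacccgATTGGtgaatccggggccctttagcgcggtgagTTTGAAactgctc
CDKN3 (chr14:54396757-54397006, plus strand): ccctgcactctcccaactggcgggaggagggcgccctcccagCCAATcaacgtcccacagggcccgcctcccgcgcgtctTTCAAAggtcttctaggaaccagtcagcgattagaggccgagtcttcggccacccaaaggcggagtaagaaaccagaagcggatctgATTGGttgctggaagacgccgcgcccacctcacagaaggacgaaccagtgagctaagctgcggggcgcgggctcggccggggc
CDKN2C (chr1:50968456-50968705, plus strand): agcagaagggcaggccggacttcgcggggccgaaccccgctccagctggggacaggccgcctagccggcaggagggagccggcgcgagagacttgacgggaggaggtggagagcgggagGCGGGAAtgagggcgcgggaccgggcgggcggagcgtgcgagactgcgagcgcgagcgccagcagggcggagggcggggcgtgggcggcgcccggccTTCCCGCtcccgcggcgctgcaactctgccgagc
CDKN1A (chr6:36678464-36678713, plus strand): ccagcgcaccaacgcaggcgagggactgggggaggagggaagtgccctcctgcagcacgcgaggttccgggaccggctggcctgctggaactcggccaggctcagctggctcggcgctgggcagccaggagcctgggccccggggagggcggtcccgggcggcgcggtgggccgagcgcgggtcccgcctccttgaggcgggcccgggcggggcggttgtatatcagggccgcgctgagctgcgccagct
CDKN1B (chr12:12717118-12717367, plus strand): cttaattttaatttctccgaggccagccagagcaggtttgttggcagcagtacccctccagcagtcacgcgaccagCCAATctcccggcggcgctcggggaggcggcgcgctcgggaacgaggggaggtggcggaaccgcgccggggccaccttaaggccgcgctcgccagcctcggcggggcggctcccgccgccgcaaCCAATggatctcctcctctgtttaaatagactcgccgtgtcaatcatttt

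The window of CDK1 held the TTTGAA core at 69 and at 13 bases before the start and CCAAT boxes at 78 and 46 bases. CDKN3 held 1 TTTGAA core at 170 bases and CCAAT boxes at 208 and 83 bases before the start. Over all windows of the 8 genes, the TTTGAA core was found for 2 genes, CDK1 and CDKN3, against 13.3% of all 35116 RefSeq windows. CCAAT boxes were found for 5 of the 8 genes and in 32% of all windows. The E2F-type letters occurred only in the CDKN2C window shown, at 131 and 34 bases before the start, and in 5.52% of all windows. CDKN1B held CCAAT boxes at 174 and 50 bases before the start, and the CDKN1A window held none of these elements. In the windows not printed, CDK1 held a TTTGAA core at 161 and a CCAAT box at 150 bases, CDKN2C a CCAAT box at 95 bases and CDKN2D one at 234 bases, and CDK4 and CDK6 held none of the 3 elements. The core of the HIF element (ACGTG or GCGTG, so that CACGTG counts on both strands) was found for 6 of the 8 genes, not in the windows of CDK1 and CDKN3, and in 43.2% of all windows. Genes with several windows had more bases searched. A match describes letters only, and the absence of one says nothing about binding.

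CDK1 (ENSG00000170312.15), the kinase of mitotic entry, spans bases 62538089 to 62554610 of chromosome 10 (GRCh37). Its mRNA was at 185 and 189 CPM in the control cells and at 88.2 and 107 CPM in VHL-restored replicates 1 and 2. Both VHL-restored libraries were lower than both control libraries, and they differed more from each other than the control libraries did. The group values were 187 ± 2.72 and 97.4 ± 13 CPM (SD, n = 2 each), and the log2 fold change was -0.89 (standard error, SE, 0.0723, edgeR FDR = 1.44e-11). Of all tested genes, 9.59% had a lower log2 fold change. No annotated gene overlaps the exons of CDK1.

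CDK2 (ENSG00000123374.11), the kinase of the G1/S transition, spans bases 56360565 to 56366573 of chromosome 12 (GRCh37). It was counted 1057 and 788 times in the deeper and the shallower control library, and 54 and 274 times in VHL-restored replicates 1 and 2. These counts correspond to 50.2 and 52.4 CPM in the control cells and to 18.3 and 16.3 CPM in the VHL-restored cells. The groups were far apart relative to the gap between replicates, which was 0.06 in the control cells and 0.17 in the VHL-restored cells on the log2 scale. The log2 fold change of CDK2 was -1.62 (SE 0.106, edgeR FDR = 1.52e-13), and 2.8% of all tested genes had a lower one. PMEL, which overlaps CDK2 on the opposite strand, had 1.38 to 3.05 CPM. The lncRNA ENSG00000258554 overlaps CDK2 on that strand too. Whether the counting used strand is not given in the sources used here, so it is not known whether reads of these genes were kept apart. Their part in the CDK2 values was not tested.

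CDK4 and CDK6, the kinases of the D-type cyclins, did not pass the test in either direction. CDK4 (ENSG00000135446.17), at bases 58141510 to 58149796 of chromosome 12 (GRCh37), was at 122 and 118 CPM in the control cells and at 128 and 132 CPM in the VHL-restored cells. Its log2 fold change was 0.12, with a 95% interval from -0.01 to 0.25 (edgeR FDR = 0.104). CDK6 (ENSG00000105810.9), at bases 92234235 to 92465887 of chromosome 7 (GRCh37), was at 339 and 341 CPM in the control cells and at 308 and 323 CPM in the VHL-restored cells. The log2 fold change of CDK6 was -0.10, with a 95% interval from -0.23 to 0.03 (edgeR FDR = 0.154). TSPAN31, which overlaps CDK4 on the opposite strand, was at 15.6 and 18.3 CPM in the control cells and at 25.1 and 20.5 CPM in the VHL-restored cells, and it passed the test (log2 fold change 0.36, edgeR FDR = 0.02). Its part in the CDK4 values was not tested. The calls of both genes depended on single libraries, and that of CDK4 also on the scaling. CDK4 passed without VHL-restored replicate 1 (log2 fold change 0.14, edgeR FDR = 0.038), and CDK6 passed without VHL-restored replicate 2 (log2 fold change -0.15, edgeR FDR = 0.0417). With library totals in place of TMM, which moved the median of all tested genes by 0.13 upward, CDK4 rose by 0.25 (edgeR FDR = 0.00102) and the sign of CDK6 turned, to 0.03, without a call (edgeR FDR = 0.654).

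CDKN1A (ENSG00000124762.13), the p21 gene, was the most abundant of the 9 in every library on the CPM scale per kilobase and spans bases 36644237 to 36655114 of chromosome 6 (GRCh37). It was at 332 and 365 CPM in the control cells and at 481 and 570 CPM in the VHL-restored cells. Every VHL-restored value exceeded every control value, with gaps between replicates of 0.14 and 0.24 on the log2 scale. The log2 fold change was 0.61 (SE 0.0706, edgeR FDR = 1.73e-08). With each library left out in turn it stayed between 0.46 and 0.71.

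CDKN1B (ENSG00000111276.11), the p27 gene, spans bases 12838432 to 12875303 of chromosome 12 (GRCh37). Its mRNA was at 57.7 and 62.1 CPM in the control cells and at 74 and 74.4 CPM in the VHL-restored cells. The VHL-restored libraries were nearly equal and above both control libraries, with a log2 fold change of 0.31 (SE 0.074, edgeR FDR = 0.000545). The call was lost without the deeper control library, where the log2 fold change was 0.25 (edgeR FDR = 0.0699).

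CDKN2C (ENSG00000123080.12), the INK4 inhibitor p18, fell further than CDK1 and less far than CDK2, whereas both CIP/KIP genes rose. The gene spans bases 51426417 to 51440306 of chromosome 1 (GRCh37). Its mRNA was at 91.2 and 90.8 CPM in the control cells and at 40.7 and 41.9 CPM in the VHL-restored cells, so that replicates were within 0.04 of each other on the log2 scale. The log2 fold change was -1.13 (SE 0.0764, edgeR FDR = 3e-13), and 6.39% of all tested genes had a lower one.

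CDKN2D (ENSG00000129355.6), the INK4 inhibitor p19, was the least abundant on the CPM scale and the least certain. The gene spans bases 10677136 to 10679735 of chromosome 19 (GRCh37). It had 379 and 264 counts in the control cells and 33 and 272 counts in VHL-restored replicates 1 and 2, which correspond to 18 and 17.5 CPM and to 11.2 and 16.2 CPM. The VHL-restored libraries differed by 0.53 on the log2 scale, more than the difference between the groups, a log2 fold change of -0.24 with a 95% interval from -0.53 to 0.05 (edgeR FDR = 0.143). The value depended on which VHL-restored library was used, since it was -0.67 (edgeR FDR = 0.0259) without replicate 2 and -0.14 (edgeR FDR = 0.346) without replicate 1. With all libraries thinned to the depth of the shallowest it was -0.58 (edgeR FDR = 0.0426).

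CDKN3 (ENSG00000100526.20), the CDK phosphatase gene, spans bases 54863567 to 54886936 of chromosome 14 (GRCh37). Its mRNA was at 56.2 and 57.9 CPM in the control cells and at 43.1 and 48.5 CPM in the VHL-restored cells. All VHL-restored values were below those of the control cells, but the log2 fold change of -0.27 (SE 0.0822, edgeR FDR = 0.00521) was small. The call was lost with DESeq2 (DESeq2 adjusted p = 0.051), with library totals (edgeR FDR = 0.141) and without the shallower control library (edgeR FDR = 0.0608). Without VHL-restored replicate 2 the log2 fold change was -0.41 (edgeR FDR = 0.0117).

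**Figure D2:**
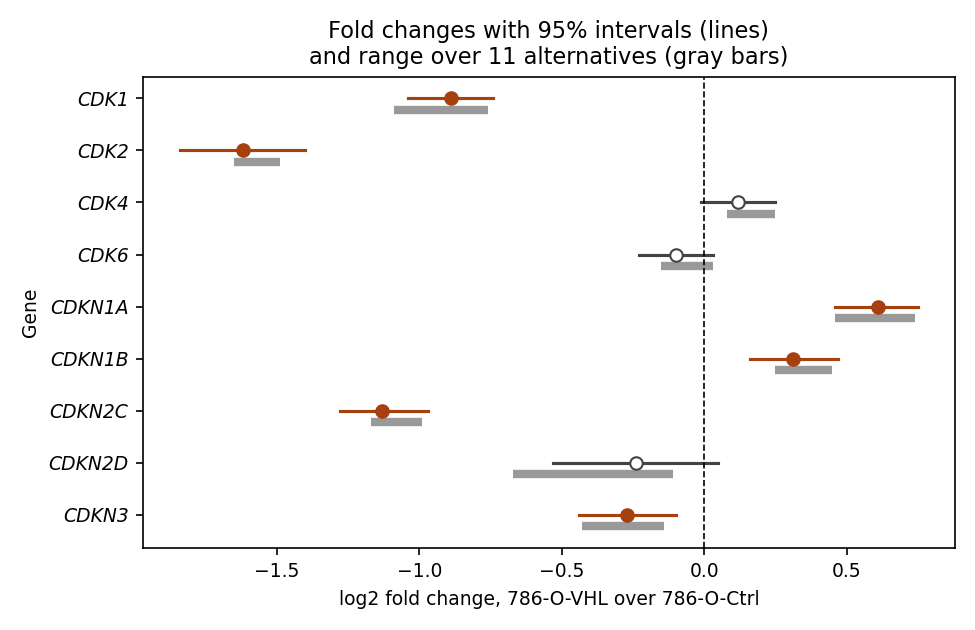
Log2 fold change of each gene, 786-O-VHL over 786-O-Ctrl (x axis), with its 95% interval as a line (filled points, FDR under 0.05; open points, not passed). The gray bar under each gene spans the values under 11 alternatives of the processing, and the bar of CDK6 crosses 0 (-0.15 to 0.03) with its sign turned under library totals, whereas that of CDK1 spans -1.09 to -0.76.

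**Figure D3:**
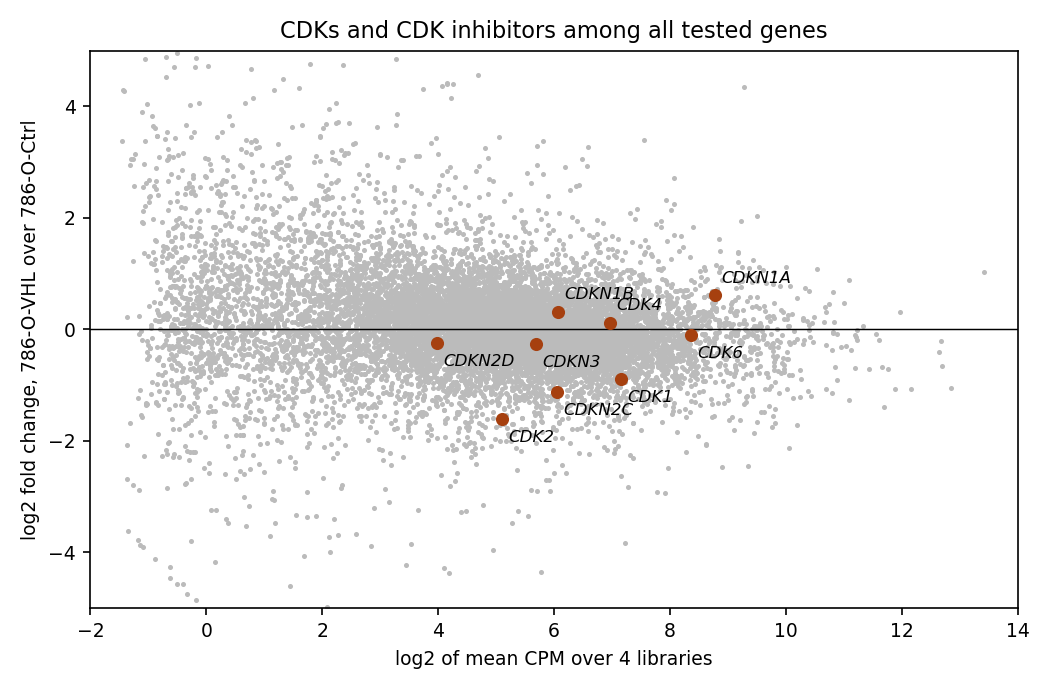
Log2 fold change (y axis) against the log2 of the mean CPM (x axis) of all tested genes (gray), with CDKs and CDK inhibitors in orange. CDK2 and CDKN2C lie lowest of the 9, with 2.8% and 6.39% of all tested genes below them. Of the tested genes, 41 lie outside the axes.

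Levels of different genes were compared per kilobase of exon (CPM per kb, over the union of annotated exons), since longer mRNAs yield more reads. In the control cells the order was CDKN1A at 116, CDK1 at 47.9, CDK4 at 38.8, CDKN3 at 31.2, CDKN2C at 30.1, CDK6 at 27.8, CDK2 at 13.2, CDKN2D at 11.8 and CDKN1B at 6.47 CPM per kb. The values of neighbors in this order did not overlap between libraries. In the VHL-restored cells, CDKN1A at 175 and CDK4 at 41.9 CPM per kb led. CDK6, CDKN3 and CDK1 followed at 25.8, 25 and 24.9 CPM per kb and overlapped with each other. They were followed by CDKN2C at 13.7, by CDKN2D and CDKN1B at 9.09 and 8.02, which overlapped, and by CDK2 at 4.45 CPM per kb. Among CDK1, CDK2, CDK4 and CDK6, the leading mRNA was therefore CDK1 in the control cells and CDK4 in the VHL-restored cells. Other CDKs were not placed in this order. With the longest transcript as the length, CDK1 at 96.1 and CDK4 at 64.3 CPM per kb in the control cells, and CDK4 at 69.6 and CDK1 at 50 CPM per kb in the VHL-restored cells, gave the same leading CDK. The rest of the order changed with that length. In the control cells CDKN1B at 13.8 moved above CDKN2D at 12.5 CPM per kb. In the VHL-restored cells CDK1 was followed by CDKN3 at 42.8, CDK6 at 27, CDKN1B at 17.1, CDKN2C at 14.2, CDKN2D at 9.6 and CDK2 at 6.66 CPM per kb.

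The composition of the CDK mRNA pool differed accordingly. Of the summed CPM per kb of the 4 kinases, CDK1 held 37.2% and 37.8% in the control libraries and 24.1% and 27.1% in the VHL-restored libraries. The share of CDK2 was 10.1% and 10.5% against 5.03% and 4.17%. CDK4 had 30.9% and 29.9% in the control cells and 44% and 42.4% in the VHL-restored cells. Among the 5 inhibitor genes, the share of CDKN1A was 58.3% and 60.4% in the control cells and 75.4% and 76.3% in the VHL-restored cells, and that of CDKN2C was 15.9% and 14.9% against 6.33% and 5.57%. The summed level of the inhibitors relative to that of the kinases was 1.49 and 1.58 in the control cells and 2.27 and 2.48 in the VHL-restored cells. These ratios are of mRNA and hold no information on protein. The inhibitor sum was 190 and 202 against 213 and 249 CPM per kb, and the kinase sum 127 and 128 against 93.6 and 100. In group means, CDKN1A went from 116 to 175 and CDKN1B from 6.47 to 8.02 CPM per kb. CDKN2C (30.1 to 13.7), CDKN2D (11.8 to 9.09, not past the test) and CDKN3 (31.2 to 25) went the other way. The shares and summed levels were computed over the union of exons only, and not with the longest transcript. The inhibitor sum includes the phosphatase gene CDKN3 and leaves out CDKN1C, CDKN2A and CDKN2B. With 2 libraries against 2, a two-sided exact permutation test cannot pass 0.05, as 2 of the 6 possible splits are always as extreme, and the shares and ratios are given without a test.

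**Figure D4:**
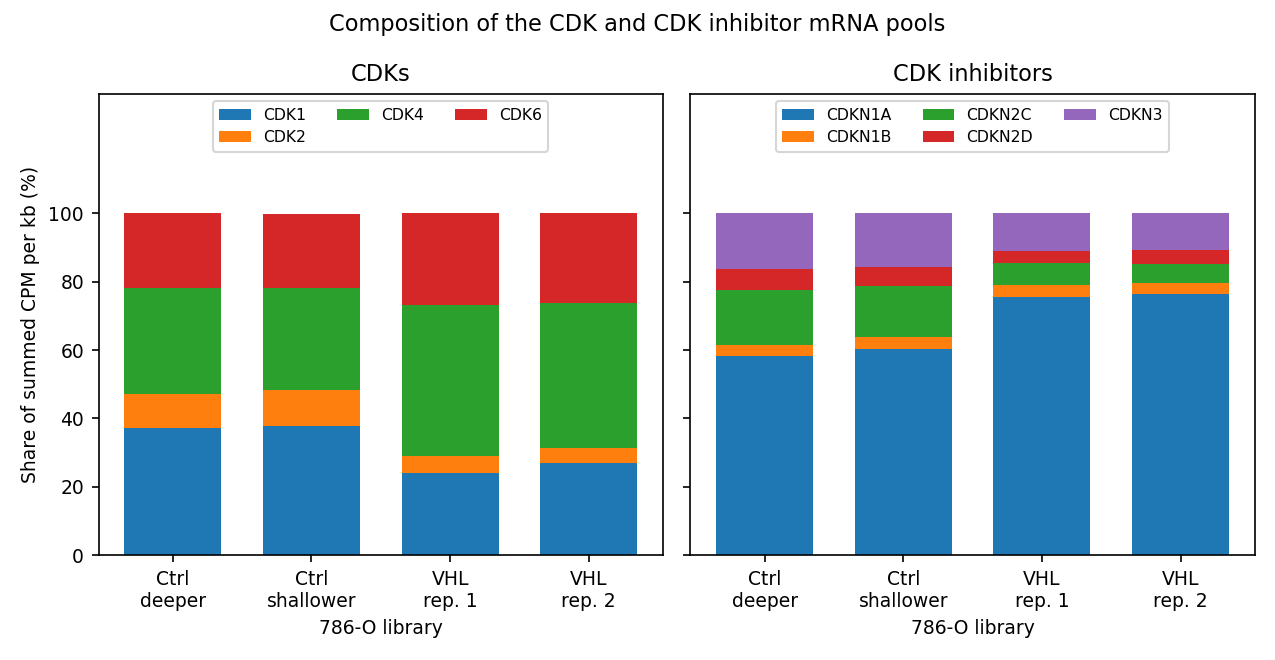
Share of each gene (colors) in the summed CPM per kb of the 4 CDKs (left) and of the 5 CDK inhibitors (right), in percent, 1 bar per library. CDK1 and CDK2 take a smaller share and CDK4 a larger one in both 786-O-VHL libraries, and CDKN1A takes over 75% of the inhibitor pool there.

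Ratios between genes within a library do not depend on the scaling between libraries. The ratio of CDK4 to CDK6 was 1.42 and 1.38 in the control cells and 1.64 and 1.62 in the VHL-restored cells, in CPM per kb. CDKN2C and CDKN2D together stood at 0.63 and 0.631 of CDK4 and CDK6 together in the control cells, and at 0.315 and 0.357 in the VHL-restored cells. For the CIP/KIP genes, the ratio of CDKN1A to CDKN1B was 17.8 and 18.2 against 20.1 and 23.7. The ratio of CDK1 to CDK2 was 3.67 and 3.59 against 4.79 and 6.51, with the wider spread in the VHL-restored cells. None of these 4 ratios overlapped between the groups. The genes in them did not overlap by themselves either, as for 80% of all tested genes, and no such share was computed for ratios.

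A further 7 lists held partners and regulators of the CDKs, genes downstream of them, other CDKs and p53 target genes. Together they listed 91 genes, of which 86 were tested. Of these, 41 were lower and 20 higher at an FDR under 0.05, against 31.9% and 32.6% of all tested genes, and their median log2 fold change was -0.19. With library totals, 36 were lower and 28 higher.

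Cyclins, the activating partners, were mostly lower. Of 9 tested, 8 were lower and 1 was higher, and the median log2 fold change was -1.11. The steepest falls were those of CCNE2 (cyclin E2), from 13.7 and 12.2 to 2.04 and 0.653 CPM (log2 fold change -3.89, SE 0.303, edgeR FDR = 5.88e-12), and of CCNA1, from 5.75 and 5.65 to 1.02 and 2.14 CPM (log2 fold change -1.55, SE 0.293, edgeR FDR = 4.06e-05). Both values depended on depth and on 1 library. Without VHL-restored replicate 2 the log2 fold change of CCNE2 was -2.68 (edgeR FDR = 1.18e-05) and that of CCNA1 was -2.48 (edgeR FDR = 0.0022). With libraries thinned to the shallowest, they were -2.91 and -2.27 (edgeR FDR = 9.65e-06 and 0.000865). CCND2 (cyclin D2) had no count in the control cells and 3 and 13 counts in VHL-restored replicates 1 and 2. Against a limit of 3 counts over both control libraries, its observed rate was 9.73-fold higher, without allowance for counting error in its 3 and 13 counts. With CCND2 at that value, the median of the list was the same, -1.11. CCND2 fell below the filter after thinning, with at least 10 counts required in every library, and without either VHL-restored replicate.

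The kinases and phosphatases that switch CDKs by phosphorylation moved in both directions. Of 5 tested, 3 were lower and 1 was higher. The phosphatase gene CDC25A fell (log2 fold change -1.57, SE 0.126, edgeR FDR = 1.11e-11), as did PKMYT1, an inhibitory kinase of CDK1 (log2 fold change -1.34, SE 0.0807, edgeR FDR = 2.48e-14). CDC25B, another CDK-activating phosphatase, rose from 188 and 196 to 328 and 342 CPM (log2 fold change 0.81, SE 0.0627, edgeR FDR = 5.03e-12). Among 4 genes of the CDK-activating kinase and the CKS subunits, CCNH was higher (log2 fold change 0.60, edgeR FDR = 0.000152) and CKS1B and CKS2 were lower (log2 fold changes -0.47 and -0.28, edgeR FDR = 9.38e-07 and 0.00169). The CCNH and CKS2 calls were lost without VHL-restored replicate 2, where the values were 0.36 (edgeR FDR = 0.159) and -0.09 (edgeR FDR = 0.386). That of CCNH was also lost after thinning (0.27, edgeR FDR = 0.259), and that of CKS2 with library totals (-0.15, edgeR FDR = 0.0828).

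Ubiquitin ligase genes that act in the turnover of CDKN1A, CDKN1B and mitotic cyclins were lower in 9 of 12 cases and higher in 1, and the median log2 fold change was -0.66. SKP2, the subunit that recognizes p27, fell from 77.8 and 77 to 21.7 and 23.6 CPM (log2 fold change -1.74, SE 0.0884, edgeR FDR = 5.54e-16). DTL, which directs p21 to the CUL4 ligase, fell from 57.5 and 58.6 to 19 and 14.5 CPM (log2 fold change -1.92, SE 0.109, edgeR FDR = 6.37e-15). RNF123, a ligase of p27 in the cytoplasm, rose (log2 fold change 0.67, SE 0.0885, edgeR FDR = 1.61e-07), and by 0.44 without VHL-restored replicate 2 (edgeR FDR = 0.00862). Protein levels of p21 and p27 were not analysed here.

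Of 19 tested genes of the RB, E2F and DREAM group, the transcription factors and repressors downstream of the CDKs, 11 were lower and 2 were higher, and the median log2 fold change was -0.25. E2F1 fell from 113 and 108 to 17.6 and 18.5 CPM (log2 fold change -2.59, SE 0.0883, edgeR FDR = 9.6e-20), and E2F8 fell too (log2 fold change -1.49, SE 0.164, edgeR FDR = 6.42e-09). E2F5 rose (log2 fold change 0.92, SE 0.115, edgeR FDR = 7.23e-08). TFDP2, a dimer partner of E2F proteins, rose by 0.21 on the log2 scale (edgeR FDR = 0.0266), and its call was lost without either control library and without VHL-restored replicate 2, where the value was 0.07 (edgeR FDR = 0.669). It was lost with DESeq2 and after thinning too.

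CDKs and CDK inhibitors outside the 9 genes moved in both directions. Of 16 tested, 5 were higher and 5 were lower, and the median log2 fold change was -0.06. CDKN1C, the third CIP/KIP gene, had 22 and 32 counts in the control cells and 21 and 102 counts in the VHL-restored cells, or 1.04 and 2.13 against 7.12 and 6.06 CPM. Its log2 fold change of 2.05 (SE 0.313, edgeR FDR = 1.86e-06) was larger than that of CDKN1A, but its level was far lower. After thinning it was 2.65 (edgeR FDR = 0.000283). The value for CDKN1C was 1.57 without the deeper control library and 2.59 without the shallower one. CDK17 rose (log2 fold change 0.53, edgeR FDR = 2.6e-05), and CDK15 and CDK18 fell (log2 fold changes -0.75 and -0.62, edgeR FDR = 6.49e-10 and 7.18e-06). The p53 target genes, of which CDKN1A is a well-known member that was left out of the list, were higher in 9 and lower in 3 of 21 tested cases, and their median was 0.12 on the log2 scale. GADD45A rose from 215 and 243 to 633 and 759 CPM (log2 fold change 1.62, SE 0.0745, edgeR FDR = 5.54e-17) and TIGAR also rose (log2 fold change 1.59, SE 0.192, edgeR FDR = 3.45e-08). CCNG1 and DDB2 fell (log2 fold changes -0.93 and -0.44, edgeR FDR = 5.19e-12 and 0.000754). The call of DDB2 was lost after thinning (log2 fold change -0.37, edgeR FDR = 0.0854).

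**Figure D5:**
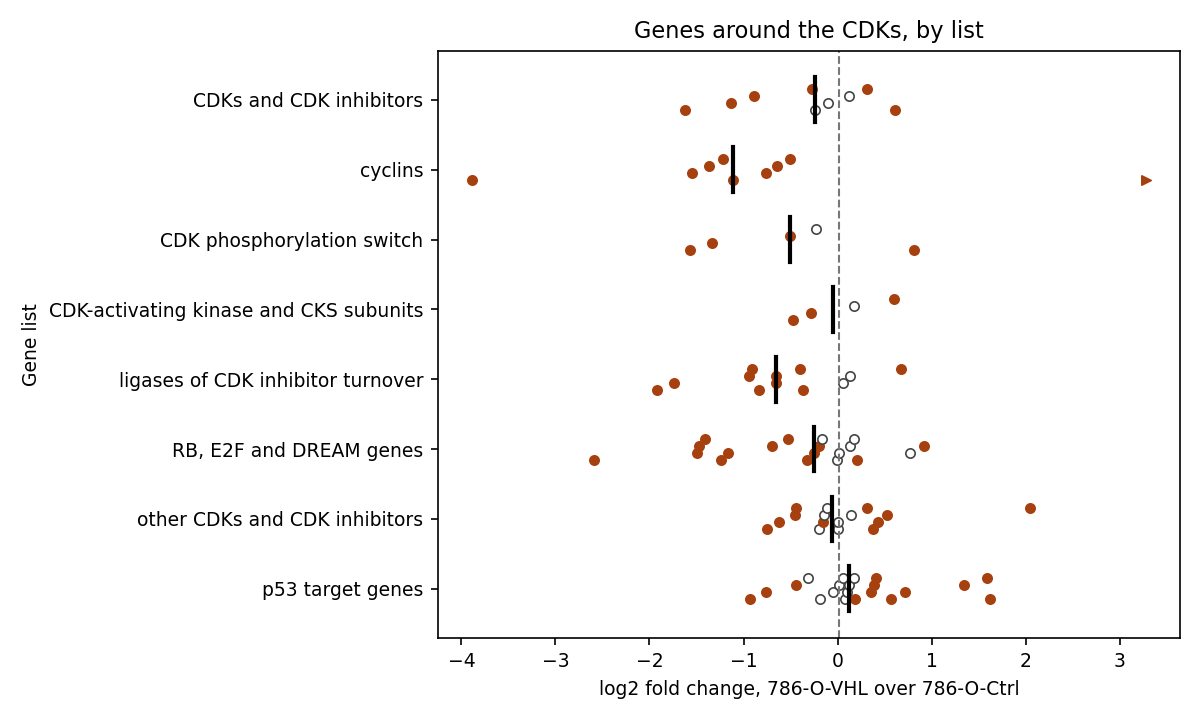
Log2 fold change (x axis) of every tested gene in each list (rows), with filled points for an FDR under 0.05, a black bar at the median of the list and a dashed line at the median of all tested genes, 0.02. Cyclins lie furthest left with a median of -1.11. The triangle is CCND2 at 3.28, its observed rate against a limit of 3 counts in the control cells.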

How the data were processed

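Libraries were made with an Illumina TruSeq kit from both 786-O sublines. The submitters' processing notes name CASAVA, STAR and hg19, and the authors deposited raw whole-number counts per gene. How reads were counted, with which annotation and whether by strand, is not given in the sources used here. It is therefore not known whether reads of genes on opposite strands were kept apart. Exons of CDK2, CDK4, CDK6, CDKN1A and CDKN2C overlap such genes. Both 786-O-Ctrl columns carry the same replicate number and were used without one.

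Genes were kept by edgeR's filterByExpr (minimum count 10), which left 12335 of 12912. Counts were scaled by TMM and tested with edgeR 4.0.16 in R 4.3.3 (quasi-likelihood F test, group as the only term, Benjamini-Hochberg adjustment). Standard errors are those implied by F. The pipeline was tested on simulated data. A count of 0 allows up to 3 counts, or 0.142 to 1.02 CPM, for counting error only. Lengths and positions came from a GRCh37 annotation with 12749 of the identifiers. Alternatives were DESeq2 1.42.0, limma-voom (limma 3.58.1), RLE, library totals, other filters, thinning and each library left out. The members and lists were chosen with earlier results of these data known. From each further list, at most 2 genes per direction were named, those with the largest log2 fold change past an FDR of 0.05 whose libraries did not overlap.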

Additional observations from a re-analysis of the deposited data

How the results depend on the processing

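Over 99 fold changes of the 9 genes under 11 alternatives, 89 kept their direction and their side of the FDR threshold, 4 lost it, 5 gained it and 1 reversed. CDK1, CDK2, CDKN1A and CDKN2C kept both under all 11. The reversal was that of CDK6, to 0.03 with library totals, a scaling that called 5077 of 8174 genes higher, against 4017 of 7956 with TMM. Under the 4-fold rule 0 of the 9 genes passed. With a library left out in turn, between 1 and 3 of the 9 genes were higher, and between 13 and 21 of the pathway genes were higher. The lowest of these came without the deeper 786-O-Ctrl library (1 gene) and without 786-O-VHL replicate 2 (13 genes). The cause was not tested. Of 258 fold changes of the 24 genes named from the further lists, 248 kept their call and 10 lost it (TFDP2, CCNH, CKS2 and DDB2).

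Ratios depended on the length used. With the longest transcript, CDK4 to CDK6 was 2.21 in the control cells and 2.57 in the VHL-restored cells, CDKN2C plus CDKN2D to CDK4 plus CDK6 was 0.469 and 0.246, CDKN1A to CDKN1B was 11.1 and 13.5, and CDK1 to CDK2 was 4.87 and 7.58. After thinning to the shallowest library, CDK4 to CDK6 was 1.36 in the control cells and 1.66 in the VHL-restored cells. In the same order, CDKN2C plus CDKN2D to CDK4 plus CDK6 was 0.671 and 0.334, and CDK1 to CDK2 was 3.85 and 6.21. The groups came closer for CDKN1A to CDKN1B, at 18.9 and 20.8 after thinning and at 18 and 21.9 before. The shallow VHL-restored replicate 1 limits genes with few counts, such as CDKN2D.

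No paired analysis was possible because the 786-O-Ctrl columns are both headed as replicate 1.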
